A study of Mus musculus with 16 samples.

Results

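Mouse Trbj2-7, written TCRBJ02-07 by the sequencing service, is 1 of the 14 J gene segments named in a survey of T cell receptor β chain (TCRβ) rearrangements from pancreatic tumors. It was the J gene of 41256 of the 198953 unique rearrangements read in 16 tumor samples, which is 20.7% of them. The gene was selected on measured values of these same samples, namely its share of rearrangements and templates, its share of CDR3 sequences found in 1 or in many samples, its V gene partners and its inserted bases. Those values are therefore given as a description, without a test, and the tests below set treatment groups against control, a contrast that the rule did not name, on per-sample shares that it did use.

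Tumors of KPC.Luc, a mouse line of pancreatic ductal adenocarcinoma (PDAC) that expresses luciferase, were grown under the skin of the right flank in female mice of the C57BL/6 strain, and T cells were taken from the tumors by positive magnetic selection on CD90.2, a surface protein of mouse T cells. The 4 groups held 4 mice each. In the control group, mice were given scrambled peptide together with isotype IgG. ANT008 mice received ANT008, a peptide antagonist of the receptors for vasoactive intestinal peptide (VIP-R), with isotype IgG. Anti-PD-1 mice received scrambled peptide with antibody against the checkpoint receptor PD-1, and combination mice received ANT008 and anti-PD-1. All 16 mice carried the tumor and received a peptide, 10 µg under the skin every day, and an antibody, 200 µg into the abdomen every 3 days, over 10 days. Mice were 8 to 10 weeks old at the time of the experiments, the labels state that the selected cells were not all T cells, and CD4 and CD8 T cells were not separated. Rearranged TCRβ was present in all 16 samples, and such data hold no other marker against which the cell type could be checked.

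A TCRβ chain is made when a developing T cell joins 1 V, 1 D and 1 J segment, with bases trimmed from the segment ends and other bases inserted at the joints. The joint encodes the third complementarity-determining region (CDR3), the loop that contacts the peptide presented to the T cell, and the J segment supplies its last residues. The mouse locus has a pair of D-J clusters, each in front of its own constant gene, and the RefSeq gene order of the GRCm38.p6 annotation places Trbj2-7 last in the second cluster, between the pseudogene Trbj2-6 and the constant gene Trbc2. A CDR3 found in many animals is called public and a CDR3 found in 1 animal private. Rearrangements out of frame make no receptor chain and are carried along in cells whose other allele made one.

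The bases that each J gene supplied show where Trbj2-7 differs from its neighbors. The read of 87 bases stopped just before the codon of the phenylalanine that closes the CDR3. Shown here are the last bases of reads in which no J base had been deleted, for Trbj2-7 and for the pair of J genes whose pattern over shared and private CDR3s came nearest to it (below), with J bases in capitals.
TCRBJ02-07: CTCCTATGAACAGTAC
TCRBJ02-05: AACCAAGACACCCAGTAC
TCRBJ02-01: TAACTATGCTGAGCAGTTC
Trbj2-7 supplied 16 bases, and the other functional Trbj2 genes supplied 18 to 20. Its last 6 bases were the same as those of Trbj2-5. The 237 rearrangements that the service left tied between these J genes, equal to 0.574% of the Trbj2-7 rearrangements, were not counted for Trbj2-7, and at most 0.257% of the productive templates of a sample had no J gene.

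The widely shared CDR3s of Trbj2-7 show how the gene was joined. The coding sequences below are the most widely found ones of 4 CDR3s, each printed from the cysteine codon to the end of the read, with the bases left of Trbj2-7 in capitals. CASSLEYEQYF, found in all 16 samples, was encoded by 12 different sequences, of which 4 with TCRBV12-01 are shown because they differ only at the codons for leucine and glutamate and each keeps 12 bases of the J gene.
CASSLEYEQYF in 9 samples: tgtgccagctctctcgagTATGAACAGTAC
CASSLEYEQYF in 7 samples: tgtgccagctctctcgaaTATGAACAGTAC
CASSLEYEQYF, another sequence in 7 samples: tgtgccagctctctggagTATGAACAGTAC
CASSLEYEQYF in 3 samples: tgtgccagctctctggaaTATGAACAGTAC
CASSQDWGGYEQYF, found in 15 samples, is shown with TCRBV05-01 because its first sequence, with no inserted base, was found identical at every base in 12 samples, the most of any productive Trbj2-7 rearrangement.
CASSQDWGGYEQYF in 12 samples, 0 inserted bases: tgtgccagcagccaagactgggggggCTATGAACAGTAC
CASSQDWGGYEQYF in 6 samples, 2 inserted bases: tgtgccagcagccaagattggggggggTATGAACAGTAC
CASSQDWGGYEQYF in 5 samples, 1 inserted base: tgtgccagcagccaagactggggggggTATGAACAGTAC
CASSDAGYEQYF, found in 14 samples and among the largest Trbj2-7 clones, is shown with TCRBV13-03.
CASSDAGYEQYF in 6 samples, 0 inserted bases: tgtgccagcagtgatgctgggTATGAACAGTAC
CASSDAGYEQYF in 4 samples, 0 inserted bases: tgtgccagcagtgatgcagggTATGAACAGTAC
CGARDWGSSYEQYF, found in all 16 samples, is shown with TCRBV20-01 because it keeps the whole end of Trbj2-7.
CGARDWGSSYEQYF in 11 samples, 2 inserted bases: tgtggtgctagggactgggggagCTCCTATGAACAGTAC
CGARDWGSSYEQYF in 5 samples, 3 inserted bases: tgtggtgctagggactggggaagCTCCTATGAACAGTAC
In the first 3 of these CDR3s the deletion removed 3 or 4 bases of Trbj2-7, which left the codons for tyrosine, glutamate, glutamine and tyrosine.

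Trbj2-7 was the most used J gene by unique productive rearrangements in 16 of 16 samples. Productive rearrangements were those in frame with no stop codon, and unique means that each rearrangement counts once whatever its number of templates, the starting molecules that the service estimated. The share was 23.0%, 20.5%, 20.7% and 22.8% in the control samples, 21.5%, 21.0%, 21.3% and 19.7% with ANT008, 20.4%, 20.7%, 22.3% and 20.3% under anti-PD-1, and 21.3%, 20.6%, 21.1% and 21.0% under the combination. The mean was 21.1% ± 0.895 (SD, n = 16), and the 95% Wilson intervals of the 16 samples ran from 18.6% to 24.4%. The next most used J gene, TCRBJ02-01, took up 13% ± 0.763 and TCRBJ02-05 took up 11.2% ± 0.572 (SD, n = 16), and the gap from Trbj2-7 to the next J gene was 6.30 to 11.6 percentage points over the samples. Trbj2-7 thus stood apart from its neighbors in this order by more than the spread between samples. The depth behind these shares was 2526 to 13939 productive rearrangements and 7180 to 72588 productive templates per sample.

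Control 1 and control 4 stood apart from the other samples in a group of small rearrangements. Some rearrangements had the same CDR3 bases as a rearrangement at least 100 times larger in the same sample, and differed from it outside the CDR3. They were 717 of the productive Trbj2-7 rearrangements (2.69%) and 1.18% of the others, and reached 7.75% of the Trbj2-7 rearrangements in control 1 and 10.0% in control 4. Without them the productive unique share was 21.8% in control 1 and 21.5% in control 4, and 20.9% over all samples. They held 0.586% of the productive Trbj2-7 templates. Group differences on unique rearrangements are given below with and without them where they moved, and their part in the control values was not tested. Inserted bases, trimming and CDR3 ends by sharing class are given with them included.

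Rearrangements that make no receptor used Trbj2-7 at nearly the same share. Out of frame, the share of unique rearrangements was 23.4%, 20.01%, 20.6% and 23.0% in control, 21.0%, 19.6%, 20.6% and 19.6% with ANT008, 19.9%, 19.7%, 19.7% and 20.3% under anti-PD-1, and 20.2%, 21.6%, 18.9% and 19.1% in the combination group, a mean of 20.5% ± 1.27 (SD, n = 16). The productive share was higher than the out-of-frame share in 13 of 16 samples, by 0.680 ± 0.993 percentage points (SD, n = 16), so the difference was smaller than its spread. In frame with a stop codon, Trbj2-7 was used by 408 of 2364 rearrangements, or 17.3%, with a range of 11.4% to 22.9% over samples. The ratio of frames ran alongside, since 63.6% ± 2.80 of the Trbj2-7 rearrangements were productive against 62.5% ± 1.87 of the others (SD, n = 16), higher for Trbj2-7 in 14 of 16 samples.

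By templates the share was larger and far more spread out. Trbj2-7 took up 50.8%, 16.8%, 28.9% and 41.0% of productive templates in control, 29.1%, 19.8%, 17.0% and 24.0% with ANT008, 21.6%, 33.3%, 34.5% and 28.3% under anti-PD-1, and 26.5%, 31.2%, 33.2% and 27.2% in the combination group, a mean of 29.0% ± 8.78 (SD, n = 16). Control 1 was the highest sample and control 2 the lowest. By templates Trbj2-7 was the most used J gene in all samples but control 2, ANT008 3 and anti-PD-1 1, where its rank was 2. The template share exceeded the unique share in 13 of 16 samples, by 7.83 ± 8.17 percentage points (SD, n = 16). The labels name total RNA and the study's text names RNA as well as DNA, so more cells of a clone and more template molecules per cell cannot be told apart. Out-of-frame templates ranged from 10.6% to 40.04% Trbj2-7, with a mean of 22.8% ± 6.83 (SD, n = 16).

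**Figure D1:**
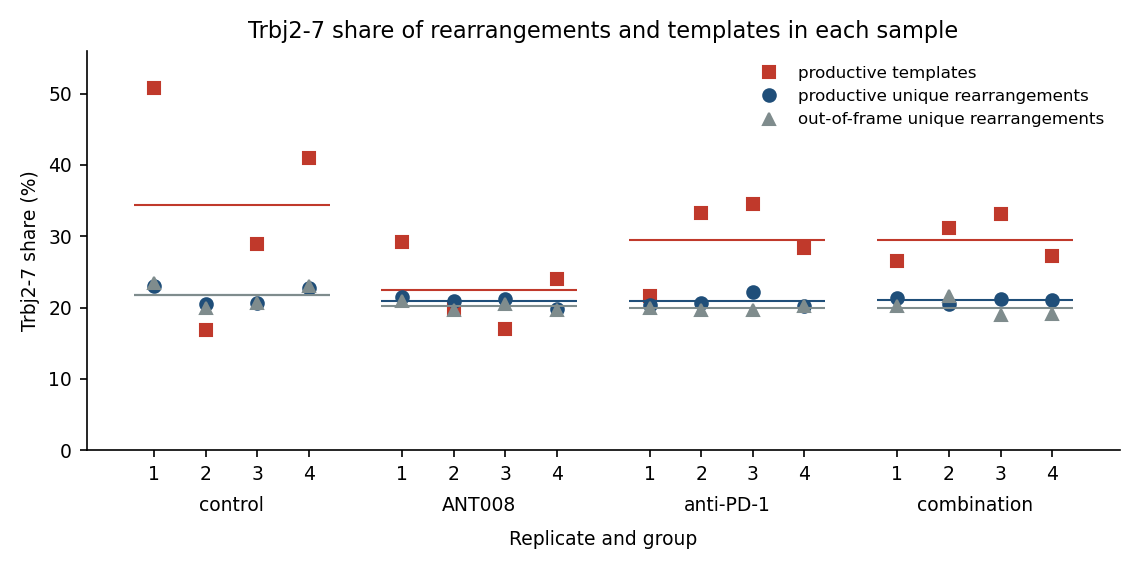
Trbj2-7 share (%, vertical axis) in each of the 16 samples (horizontal axis, replicates 1 to 4 of each group). Squares are productive templates, circles productive unique rearrangements and triangles out-of-frame unique rearrangements, with a line at each group mean. The unique shares lie between 18.9% and 23.4%, while the template shares run from 16.8% to 50.8%.

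The groups were compared with control on these shares, the question being whether treatment moved the use of the gene. The order of the mean template share was control at 34.4% ± 14.7, combination at 29.5% ± 3.19, anti-PD-1 at 29.4% ± 5.87 and ANT008 at 22.5% ± 5.28 (SD, n = 4 each), and no neighbors in this order differed beyond their spread. Without the most frequent productive rearrangement of each sample the order was control at 35.2% ± 11.9, anti-PD-1 at 29.9% ± 3.97, ANT008 at 24.5% ± 4.92 and combination at 23.9% ± 4.35 (SD, n = 4 each), so the combination group went from the second place to the last. The ANT008 share was 11.9 percentage points lower than control (SE 6.02, below the control mean in 4 of 4 samples), which missed the threshold in an exact permutation form of Dunnett's test over 10510500 assignments (two-sided p = 0.163, Benjamini-Hochberg adjusted p = 0.489 over 12 comparisons). Anti-PD-1 differed by -4.95 points (exact p = 0.765, adjusted p = 0.846) and the combination by -4.86 points (exact p = 0.775, adjusted p = 0.846). Without control 1 these differences were -6.43 for ANT008, 0.517 for anti-PD-1 and 0.612 for the combination, so the sign for the anti-PD-1 and combination groups rested on that sample. Without the most frequent rearrangement of each sample they were -10.8 for ANT008 (exact p = 0.120), -5.26 for anti-PD-1 (exact p = 0.616) and -11.3 for the combination (exact p = 0.0996), with adjusted p of 0.361, 0.672 and 0.361.

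Counted as unique rearrangements, the groups were closer still. The productive share was 21.7% ± 1.35 in control, 20.9% ± 0.791 with ANT008, 20.9% ± 0.912 under anti-PD-1 and 21.0% ± 0.316 in the combination group (SD, n = 4), with differences from control of -0.839, -0.809 and -0.709 points (SE 0.649, exact permutation p = 0.459, 0.487 and 0.583, adjusted p of 0.764 to 0.777). Out of frame, control was at 21.8% ± 1.70, and ANT008 at 20.2% ± 0.685, anti-PD-1 at 19.9% ± 0.274 and the combination at 19.95% ± 1.26 (SD, n = 4). These differed from control by -1.56, -1.86 and -1.80 points (SE 0.792, exact permutation p = 0.158, 0.0808 and 0.0920, adjusted p = 0.489 each). Without the small rearrangements beside large clones, the productive differences were -0.324, -0.394 and -0.261 points and the out-of-frame ones -1.32, -1.76 and -1.66. In each of these measures the treated groups overlapped with control.

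The template counts of all 14 J genes were also fitted together in edgeR. Relative to control, Trbj2-7 had a log2 fold change of -0.61 with ANT008 (edgeR quasi-likelihood unadjusted p = 0.0420, Benjamini-Hochberg adjusted p = 0.196), -0.22 under anti-PD-1 (adjusted p = 0.609) and -0.22 in the combination group (adjusted p = 0.622). Of the 14 J genes, 0% were called with ANT008, 7.14% under anti-PD-1 (TCRBJ02-04, named after its value was seen) and 0% in the combination group, so Trbj2-7 was called in none of the 3 comparisons. Without control 2, the sample with the lowest Trbj2-7 share, the ANT008 change was -0.84 and passed the threshold (edgeR adjusted p = 0.0164), and without control 1 it was -0.36. With TMM normalization in edgeR the changes were -0.89 with ANT008 (adjusted p = 0.121), -0.41 under anti-PD-1 (adjusted p = 0.468) and -0.56 in the combination group (unadjusted p = 0.0922, adjusted p = 0.258). Unique rearrangements as counts gave -0.04, -0.03 and -0.03.

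The rise of Trbj2-7 from private to widely shared CDR3s was the pattern for which it was chosen. CDR3s were grouped by the number of samples that held the same amino acid sequence. Among CDR3s found in 1 sample, 14837 of 81216 used Trbj2-7 (18.3%). Its share was 22.1% (2114 of 9577) in CDR3s of 2 to 3 samples, 25.2% (473 of 1877) in those of 4 to 7 samples and 35.4% (110 of 311) in those of 8 or more. At the border of the last class the share was 33.5% of the 158 CDR3s found in 7 samples and 31.1% of the 103 found in 8. Of the 50 CDR3s in 12 or more samples 19 used the gene, and of the 5 found in all 16 samples 3 did, while in exactly 12 samples it was 1 of 18.

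The rise was also read sample by sample, with the classes still set over all 16 samples. Over the 16 samples the share of Trbj2-7 ranged from 16.9% to 19.96% among a sample's private CDR3s, from 19.3% to 23.8% among those of 2 to 3 samples, from 21.7% to 28.5% among those of 4 to 7 and from 32.9% to 41.4% among those of 8 or more. The most shared class exceeded the private class in 16 of 16 samples. Each sample's most shared class, of 103 to 244 CDR3s, was drawn from the same 311 CDR3s. The 16 samples are therefore not independent repeats of the rise. The share rose at each step in 14 of 16 samples, control 3 and ANT008 4 being the exceptions, in which the step from 2 to 3 samples to 4 to 7 samples was downward. By templates the rise was steeper and noisier, from 23.5% ± 6.33 of private templates to 53.0% ± 13.9 of templates in the most shared class (SD, n = 16).

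**Figure D2:**
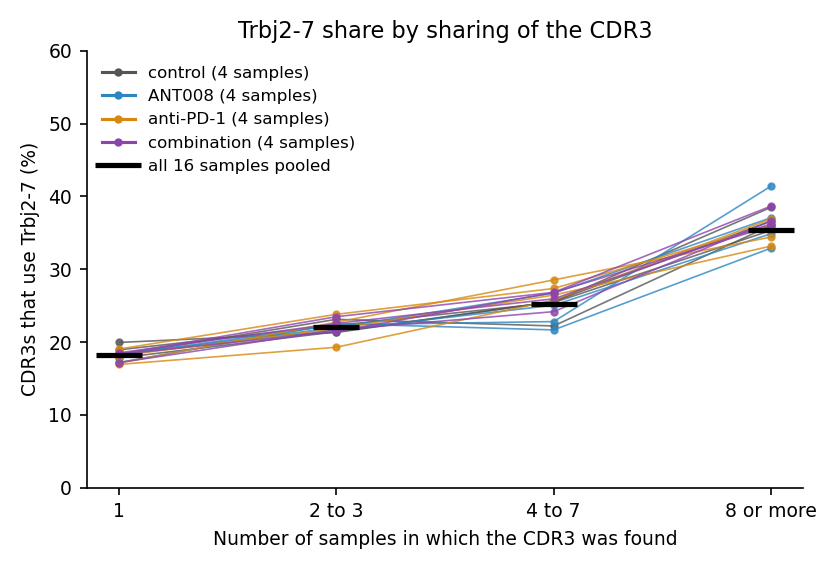
Share of CDR3s that use Trbj2-7 (%, vertical axis) by the number of samples in which the CDR3 was found (horizontal axis, 4 classes). Each thin line is 1 of the 16 samples, colored by group, and the black bars are the pooled shares of 18.3%, 22.1%, 25.2% and 35.4%. The lines of the 4 groups run together. The classes were set over all 16 samples, so the lines draw on 1 list of widely shared CDR3s.

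No other J gene rose as far over the classes. Shares within a class add up to the whole, so the rise of Trbj2-7 by itself lowers the shares of the others. Shares among the other J genes alone were not computed. The J genes with the most alike course over the 4 classes, by Euclidean distance of the log2 ratios to the private class, were TCRBJ02-05 at a distance of 0.943 and TCRBJ02-01 at 1.08. From private CDR3s to CDR3s in 8 or more samples, TCRBJ02-05 went from 11.3% to 12.9%, a ratio of 1.14, and TCRBJ02-01 from 13.2% to 13.5%, a ratio of 1.03, where Trbj2-7 had a ratio of 1.94. Of the 12 J genes with CDR3s in all 4 classes, 3 had a larger share in the most shared class than in the private class. TCRBJ01-05 and TCRBJ01-06 lay at the other end, each at 0.643% of the most shared CDR3s, with ratios of 0.180 and 0.178.

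**Figure D3:**
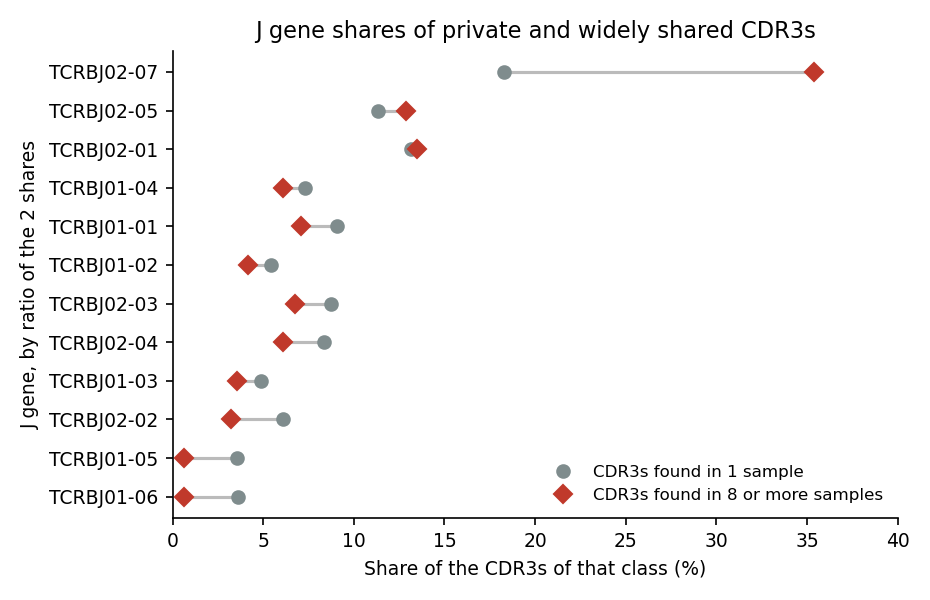
Share of each of 12 J genes (vertical axis, ordered by the ratio of the plotted shares) among CDR3s found in 1 sample (circles) and in 8 or more samples (diamonds), in percent (horizontal axis). Trbj2-7 moves from 18.3% to 35.4%, and 9 of the 12 genes have a smaller share among the most shared CDR3s. Shares within a class add up to the whole, so a rise in 1 gene lowers the others.

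Seen from the gene's own side, 2697 of its 17534 CDR3s (15.4%) were found in 2 or more samples, against 12.02% of the CDR3s of other J genes. In each tumor, 41.1% ± 2.48 of the productive Trbj2-7 rearrangements had a CDR3 that was also found in another sample, against 31.1% ± 2.03 of the rest (SD, n = 16), and the value for Trbj2-7 was the higher in 16 of 16 samples. A shared CDR3 counts in each sample that held it, and the gene was chosen on its sharing. The 16 samples are therefore not independent repeats of this difference. By group the percentage for Trbj2-7 was 39.8%, 38.6%, 37.9% and 44.1% in control, 43.2%, 39.9%, 42.3% and 42.9% with ANT008, 39.96%, 45.1%, 40.3% and 44.5% under anti-PD-1, and 38.9%, 43.2%, 38.5% and 38.3% in the combination group. The treated groups overlapped with control. The difference from control was 2.00 points with ANT008 (exact permutation p = 0.509, adjusted p = 0.764), 2.40 under anti-PD-1 (exact p = 0.378, adjusted p = 0.764) and -0.366 in the combination group (exact p = 0.993). Without the small rearrangements beside large clones the combination differed by 0.877 points (exact p = 0.896), and ANT008 and anti-PD-1 by 3.22 and 3.17.

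What counts as the same clone changed the size of the rise. When the V gene had to match as well, the share of Trbj2-7 went from 19.4% to 35.1% (40 of 114 in 8 or more samples). When every base had to match, it was 20.8% of the rearrangements found in 1 sample, 26.7% in 2 to 3 samples, 27.9% in 4 to 7 samples and 25.0% in 8 or more, the last resting on 4 of 16. Out of frame, where no receptor is made, Trbj2-7 held 19.9% of the rearrangements found in 1 sample, 33.5% of the 400 found in 2 to 3 samples and 8 of the 9 found in 4 to 7. At equal depth, with each sample drawn down to 7180 productive templates, the productive CDR3 shares were 19.8%, 25.5%, 31.3% and 41.7%.

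The rise differed by CDR3 length. Trbj2-7 CDR3s averaged 40.1 bases per sample against 42.5 for the other J genes together, shorter in 16 of 16 samples. Of them, 14.3% had 12 residues against 7.11% of the others. Short CDR3s were not particular to Trbj2-7. Over pooled rearrangements TCRBJ01-01 averaged 39.97 bases against 40.17 for Trbj2-7. The share of TCRBJ01-01 fell from 9.08% of private CDR3s to 7.07% of those in 8 or more samples. Within CDR3s of 12 residues the share of the gene went from 30.2% of private ones to 66.0% (31 of 47) of those in 8 or more samples, within 13 residues from 25.1% to 31.8% (21 of 66), and within 14 residues from 19.9% to 37.0% (44 of 119). Within 15 residues it went the other way, from 13.9% to 5.66% (3 of 53), and no CDR3 of 16 or more residues in the most shared class used Trbj2-7 (0 of 6). Between the private and the most shared class, the share thus rose in CDR3s of up to 14 residues and not above. The classes between them differed by length. Within 12 residues the share was 38.4% in 2 to 3 samples and 41.2% in 4 to 7 samples. Within 13 residues these shares were 25.8% and 27.1%, and within 14 residues 20.2% and 20.03%. Nearly all of the rise within 14 residues therefore lay in the step to 8 or more samples.

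**Figure D4:**
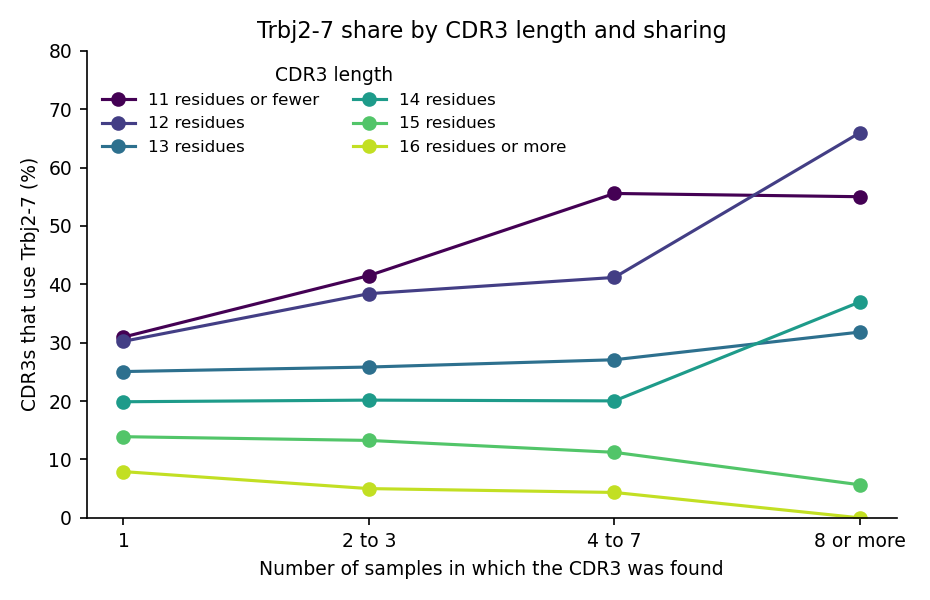
Share of CDR3s that use Trbj2-7 (%, vertical axis) by the number of samples that held the CDR3 (horizontal axis), with 1 line for each CDR3 length in amino acid residues, all 16 samples pooled. The line of 12 residues ends at 66.0% of 47 CDR3s, and the lines of 15 residues and of 16 or more end at 5.66% and 0%.

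Inserted bases were fewer in shared CDR3s for Trbj2-7 and for the other J genes alike. Productive Trbj2-7 rearrangements had 3.62 ± 0.136 inserted bases against 3.54 ± 0.0633 for the others (SD of sample means, n = 16), higher for Trbj2-7 in 13 of 16 samples. Out of frame the values were 4.33 ± 0.217 and 4.10 ± 0.138, higher in 15 of 16 samples. From the private to the most shared class the mean fell from 4.44 through 2.85 and 2.11 to 1.80 for Trbj2-7, and from 4.14 through 2.42 and 1.85 to 1.63 for the others. So Trbj2-7 had slightly more inserted bases than the pool of other J genes in every class. Such a mean was not particular to Trbj2-7. Over pooled productive rearrangements it was 3.63 for Trbj2-7, 3.63 for TCRBJ02-05, 3.70 for TCRBJ02-04 and 3.85 for TCRBJ02-03. It was 3.49 for TCRBJ02-01, 3.42 for TCRBJ02-02 and 3.18 to 3.55 for TCRBJ01-01 to TCRBJ01-06. Single J genes were not compared with Trbj2-7 by class. Rearrangements with no inserted base were 7.93% ± 0.991 of those with Trbj2-7 and 9.16% ± 0.710 of the others, lower for Trbj2-7 in 15 of 16 samples.

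The share by class was then read within levels of insertion, taking the fewest inserted bases that any sample used for a CDR3. This minimum can only fall as a CDR3 is found in more samples. The levels therefore do not hold insertion equal across the classes. It rose from 12.2% to 30.3% (54 of 178) among CDR3s that needed none, and from 15.9% to 45.5% (51 of 112) among those with 1 or 2. Among CDR3s with 3 or more it was 19.3% of private ones, 26.4% in 2 to 3 samples and 23.8% (5 of 21) in the most shared class. Private CDR3s with no inserted base were therefore below the gene's usual share, and the most shared ones above it.

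Trimming of the J gene also differed between the classes. Trbj2-7 lost 3.58 ± 0.119 bases on average and the other Trbj2 genes together 2.64 ± 0.0642 (SD of sample means, n = 16), more for Trbj2-7 in 16 of 16 samples. Such trimming was not particular to it. Over pooled productive rearrangements the mean loss was 3.55 bases for Trbj2-7, 3.22 for TCRBJ02-01 and 3.19 for TCRBJ02-05. It was 3.95 for TCRBJ01-06, and 1.51 to 2.43 for TCRBJ02-02, TCRBJ02-03 and TCRBJ02-04. No Trbj2-7 rearrangement lost more than 9 bases. Loss of exactly 4 bases, as in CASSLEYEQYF and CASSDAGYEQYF above, was the most common outcome, in 24.4% of productive and 21.9% of out-of-frame rearrangements. It made up 18.6% of the 15958 rearrangements with private CDR3s and 52.5% of the 2134 with CDR3s of 8 or more samples. A CDR3 with many rearrangements counts many times here. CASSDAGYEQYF had 98, or 37 without the small rearrangements beside large clones. Loss of 7 bases went from 14.9% to 2.30%, and an untrimmed end from 20.2% to 15.5%.

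**Figure D5:**
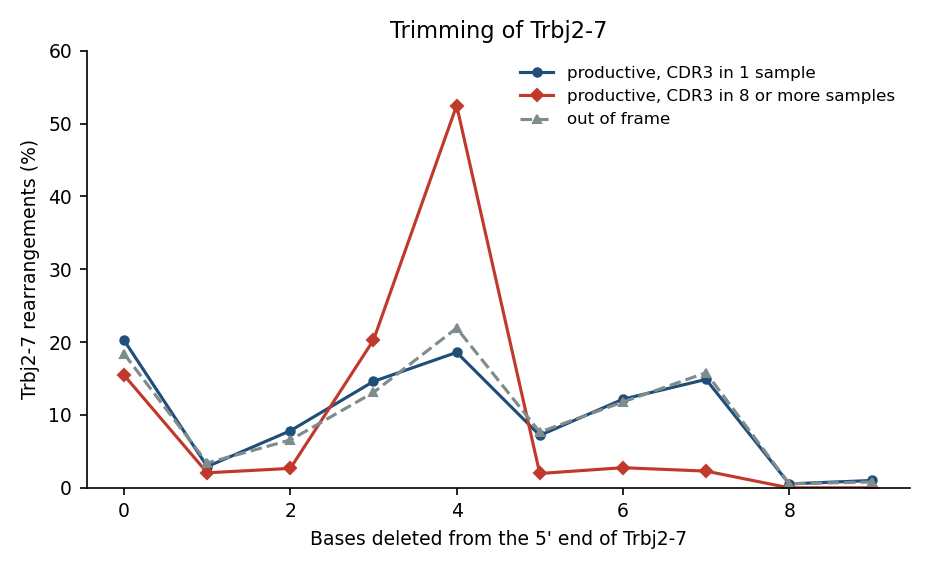
Percent of Trbj2-7 rearrangements (vertical axis) by the number of bases deleted from the 5′ end of the J gene (horizontal axis), for productive rearrangements with a CDR3 in 1 sample, productive ones with a CDR3 in 8 or more samples, and out-of-frame ones, all 16 samples pooled. At 4 deleted bases the most shared class has its peak of 52.5%, and the private class stands at 18.6%. The private class is highest at 0 deleted bases, with 20.2%.

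The ends of the CDR3s were sorted by their last residues, which need not all come from the gene. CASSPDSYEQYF, for example, ends in SYEQYF in sequences that lost 3 or 4 bases of the gene. The end was YEQYF, with no serine before it, in 45.7% of productive Trbj2-7 rearrangements, with 40% to 50% over samples. SYEQYF or a longer end made up 23.7%, and EQYF 29.6%. From the private to the most shared class the YEQYF end went from 39.9% to 72.4%, while EQYF went from 34.2% to 6.79% and the longer ends from 24.3% to 20.8%. Of the 110 most shared Trbj2-7 CDR3s, 76 ended in YEQYF. The D gene was called as D2 in 56.8% and D1 in 29.5% of the Trbj2-7 rearrangements.

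The number of coding sequences behind a CDR3 rose with its sharing. A private Trbj2-7 CDR3 was encoded by 1.01 different base sequences on average, a CDR3 of 2 to 3 samples by 2.20, of 4 to 7 samples by 4.75 and of 8 or more by 10.6. For other J genes these means were 1.01, 2.14, 4.44 and 9.07. The medians were 1, 2, 4 and 9 for Trbj2-7 and for the other J genes alike. Coding sequences were counted over all samples that held the CDR3. A CDR3 in more samples therefore had more chances to show another one, and part of the rise is built into the classes. Samples taken in pairs held 1 to 38 Trbj2-7 rearrangements that were identical at every base, with a median of 13.

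Named CDR3s with this gene covered a wide range of sizes. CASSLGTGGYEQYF was found in all 16 samples with 116 templates in total and 34 coding sequences over 8 V genes. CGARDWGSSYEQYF had 47 templates, 10 coding sequences and TCRBV20-01 in all of them. Both were in every tumor at low counts, with a median of 3 and 2 templates per sample.

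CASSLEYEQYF had 28, 18, 30 and 12 templates in the control samples, 16, 25, 1 and 52 with ANT008, 15, 10, 159 and 11 under anti-PD-1, and 85, 45, 17 and 177 in the combination group. As a share of productive templates it was 0.0656% ± 0.0343 in control and 0.239% ± 0.192 in the combination group (SD, n = 4), and the groups overlapped. TCRBV12-01 carried 91.9% of its 701 templates. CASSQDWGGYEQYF was found in all samples but anti-PD-1 2, with 474 templates, 98.1% of them with TCRBV05-01, and a highest share of 0.227% in combination 4.

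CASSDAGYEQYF was larger, with 7517 templates, 99.3% with TCRBV13-03. It took up 0.138%, 1.17%, 0.00787% and 5.38% of productive templates in control, 0.0132%, 2.33%, 0.884% and 1.20% with ANT008, and 1.55%, 1.10%, 0.360% and 6.04% in the combination group. With anti-PD-1 it was at 1.82% and 0.127% in samples 1 and 3 and had no template in samples 2 and 4, which allows up to 0.00949% and 0.0418% there. High and low samples were thus found within each group.

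A TCRBV16-01 CDR3 of 15 residues was the most frequent Trbj2-7 CDR3 of the ANT008 group and was found in 15 samples with 7391 templates. It took up 9.14%, 1.18%, 1.05% and 0.00268% in control, 1.10%, 0.425%, 0.121% and 4.32% with ANT008, 0.960%, 1.37%, 1.56% and 0.265% under anti-PD-1, and 2.01%, 0.310%, 0% and 0.523% in the combination group. The 0 in combination 3 allows a share of up to 0.00511%. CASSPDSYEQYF, mostly with TCRBV29-01, had 2977 templates in 15 samples, with 1.63% ± 1.01 of productive templates under anti-PD-1, 0.686% ± 0.944 with ANT008, 0.297% ± 0.523 in control and 0.256% ± 0.226 in the combination group (SD, n = 4). These group means were not tested.

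The other CDR3s found in most samples were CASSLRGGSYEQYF (616 templates in 15 samples, 81.8% with TCRBV03-01), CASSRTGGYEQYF (69 templates in 14 samples) and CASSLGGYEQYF (48 templates in 14 samples, 26 coding sequences over 9 V genes). Their highest shares of productive templates were 0.596%, 0.0724% and 0.0975%. Each was present in 14 or 15 tumors, and none reached 1% of productive templates in any.

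The most frequent Trbj2-7 CDR3s of the other groups each had most of their templates in 1 tumor. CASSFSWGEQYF, with TCRBV14-01, took up 14.5% of productive templates in control 1 and 2.84% in ANT008 1, was at 23 and 1 templates in control 3 and control 2, and had no template elsewhere. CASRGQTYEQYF took up 9.50% in anti-PD-1 3 and had 2 templates in control 1. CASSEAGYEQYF took up 18.2% in combination 3, 0.578% in ANT008 1 and 0.243% in ANT008 3. The ends of the coding sequences differed, as the largest rearrangement of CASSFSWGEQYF had lost 7 bases of the J gene, that of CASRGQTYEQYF 2 and that of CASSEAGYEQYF 4.

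Clone size moved with the use of the gene in productive rearrangements pooled over the 16 samples. Trbj2-7 made up 19.6% of those with 1 template, 25.8% of those with 2 to 9, 26.1% of those with 10 to 99, 30.7% (148 of 482) of those with 100 to fewer than 1000 and 36.0% (18 of 50) of those with 1000 or more. Over single samples these shares ranged from 16.9% to 22.4%, 22.7% to 29.0%, 21.2% to 32%, 12.5% to 75% and 0% to 100%. The last had a median of 28.6% over 15 samples. Sizes were template counts, which were not adjusted for the depth of a sample. Out of frame the pooled shares were 19.5%, 22.9%, 20.7%, 23.3% and 25.0%, the last from 3 of 12. Rearrangements with 1 template were 67.6% ± 6.86 of those with Trbj2-7 and 75.1% ± 4.62 of the others, lower for Trbj2-7 in 16 of 16 samples.

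Large clones carried much of the template share. Of the 328 productive rearrangements above 0.5% of their sample's productive templates, 110 used Trbj2-7 (33.5%), and without all 328 the gene's template share ranged from 21.8% to 28.7% with a median of 24.5%. Trbj2-7 held 56 of the 160 places among the 10 largest rearrangements of each sample, 17 in control, 9 with ANT008, 17 under anti-PD-1 and 13 in the combination group. The largest rearrangement used Trbj2-7 in 5 samples. In combination 3 that 1 rearrangement held 54.3% of all productive Trbj2-7 templates.

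The V genes that Trbj2-7 used most were also common partners of other J genes, as TCRBV13-02 made up 10.6% of its productive rearrangements and 10.2% of those of other J genes. In productive rearrangements the gene was joined to 25 of the 33 V genes. The V genes without it had at most 11 productive rearrangements each, too few to show that they do not join it. Out of frame, TCRBV27-01 used it in 4.55% of 22 rearrangements and TCRBV09-01 in 14.3% of 7. Productive Trbj2-7 was most often joined to TCRBV13-02 (2839 productive rearrangements), TCRBV03-01 (1990), TCRBV19-01 (1953), TCRBV05-01 (1808) and TCRBV12-01 (1729). In these V genes it made up 20.4% to 21.8% of the rearrangements, near the median of 21.1% over the 21 V genes with at least 500. The highest shares were 26.6% with TCRBV15-01, 24.4% with TCRBV16-01 and 22.7% with TCRBV14-01. The lowest were 16.6% with TCRBV24-01, 17.7% with TCRBV29-01 and 17.8% with TCRBV01-01.

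Out of frame the order of V genes was partly kept. TCRBV16-01 was at 24.5%, TCRBV14-01 at 23.2%, TCRBV24-01 at 16.5%, TCRBV29-01 at 17.9% and TCRBV01-01 at 15.7%, the former pair above and the latter 3 below the 20.2% of all out-of-frame rearrangements. TCRBV15-01 was at 19.2% out of frame against 26.6% in frame. The out-of-frame share was the higher in 9 of the 21 V genes. By templates the V genes spread apart, with Trbj2-7 at 52.3% of TCRBV16-01 templates and 12.4% of those of TCRBV01-01.

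Pairs of a V gene with Trbj2-7 were compared between groups in an edgeR fit of all 247 V-J pairs that passed a filter on low counts. The 22 pairs with Trbj2-7 in it gave no call in any comparison, where 0.81% of all pairs were called with ANT008 and 0% under either of the other treatments (Benjamini-Hochberg adjusted p threshold of 0.05). At an unadjusted p under 0.05 there were 0, 3 and 3 Trbj2-7 pairs among 35, 44 and 37 pairs in all. Trbj2-7 pairs were higher than control in 11, 11 and 13 of the 22 cases, with a median log2 fold change of -0.03, 0.00 and 0.24 against 0.36, 0.34 and 0.47 over all pairs. The comparisons share the control samples.

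DESeq2 on the same counts called 12 of the 231 pairs to which it gave an adjusted p in the combination group (5.19%), and 3 of the 12 were Trbj2-7 pairs, named here after their values were seen. With ANT008 it called 3.9% of the 231 pairs and under anti-PD-1 0%, none of them with Trbj2-7. TCRBV16-01 with Trbj2-7 held 9.76%, 1.84%, 7.64% and 11.9% of productive templates in control and 3.12%, 1.28%, 1.30% and 1.71% in the combination group, a log2 fold change of -2.07 (adjusted p = 0.255 in edgeR and 0.0480 in DESeq2). TCRBV14-01 with Trbj2-7 held 14.6%, 0.226%, 0.270% and 9.22% in control and 0.257% to 0.917% in the combination group (log2 fold change -3.14), the high values being those of control 1 and control 4. TCRBV05-01 with Trbj2-7 went from 0.343% to 1.02% in control to 0.554% to 7.86% in the combination group, a log2 fold change of 2.02. In each pair the lowest and highest samples of the groups overlapped.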

How the data were processed

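TCRβ rearrangements of T cells from 16 subcutaneous KPC.Luc tumors, 4 mice in each of 4 groups, were sequenced by a commercial service with the immunoSEQ assay, in which multiplexed V and J primers amplify the CDR3 and a synthetic repertoire serves to correct for unequal amplification. The deposited values hold 1 entry per unique rearrangement of 87 bases in each sample, with a template count, a whole number that the service estimated. The other columns used give, per the file headers, the V, D and J genes, the frame, the CDR3 amino acid sequence, CDR3 length, inserted and deleted bases and the positions of the joints. Columns for sequencing reads were empty, so read depth is unknown and template counts carry the service's own estimate. A genome build and an aligner were not given in the sources used here, so no coordinates are given. Names of all 14 J genes were matched to RefSeq symbols (GRCm38.p6), which were used for names and gene order only.

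Groups came from the sample titles, with n = 4 mice in each. The gene, its lists and the tests were chosen with earlier results of these data known. The Trbj2-7 share was the percent of all productive (or out-of-frame) unique rearrangements or templates in a sample, with unresolved J genes kept in the total. A CDR3 counted for the J gene with most of its templates over the 16 samples. Groups were compared with control by an exact permutation form of Dunnett's test over 10510500 assignments, two-sided, with Benjamini-Hochberg adjustment over 12 comparisons. Template counts per J gene and per V-J pair (after filterByExpr for pairs) were tested in edgeR 4.0.16 by quasi-likelihood with library sizes fixed at the productive templates, in R 4.3.3, with a threshold of 0.05. Intervals are Wilson intervals at a level of 0.95, and the limit that a count of 0 allows is 3 counts. Both cover counting error only. Alternatives were DESeq2 1.42.0, TMM normalization, unique rearrangements as counts, other filters, leaving out the most frequent productive rearrangement of each sample, log2 odds of the share, samples drawn down to 7180 productive templates (mean of 20 draws), other definitions of a shared clone, the replicate number as a block, and each sample left out in turn. Leaving out rearrangements with the CDR3 bases of one at least 100 times larger, in the same or in any sample, was chosen after seeing the data. The tests were checked on simulated data with Python 3.11.15, numba 0.67.0, scipy 1.17.1, pandas 2.3.3 and numpy 2.4.6, and figures were drawn with matplotlib 3.10.9.

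Named were the 2 J genes nearest to Trbj2-7 in their course over the 4 sharing classes, the 5 V genes with most Trbj2-7 rearrangements, the 3 highest and 3 lowest V genes in Trbj2-7 use among those with at least 500 productive rearrangements, up to 10 Trbj2-7 CDR3s found in most samples, the most frequent Trbj2-7 CDR3 of each group and each Trbj2-7 pair past the threshold. CDR3s over 14 residues were not spelled out. The sources used here do not state what the replicate numbers mean, and the main tests did not pair mice by them.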

Additional observations from a re-analysis of the deposited data

Results flagged for a closer look

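Among 36 groups of 4 samples over 9 measures, 2 held a sample far from the others, and chance marks about 1 in 20 such groups. In the combination group, 43.2% of the productive Trbj2-7 rearrangements of replicate 2 had a CDR3 found in another sample, against 38.9%, 38.5% and 38.3% in replicates 1, 3 and 4. In the anti-PD-1 group, 53.3% of the productive Trbj2-7 rearrangements of replicate 4 had 1 template, against 68.3%, 68.0% and 70.4% in replicates 1, 2 and 3. That replicate had the fewest productive templates of the 16 samples, 7180, and the part of depth in this value was not tested.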

How the results depend on the processing

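Of 530 recomputed values, 480 kept their direction and their side of the threshold, 1 crossed it, 11 turned in sign and 38 counts or sizes moved, and the cause was not tested. Among rearrangements with 2 or more templates, the Trbj2-7 share exceeded control by 1.20 points with anti-PD-1 (exact p = 0.677) and by 0.916 with the combination (exact p = 0.816). Out-of-frame templates in place of unique rearrangements gave 2.09 and 2.64 points (exact p = 0.958 and 0.923). For ANT008 these settings gave -0.055 and -2.82 points. The percent of Trbj2-7 rearrangements with a CDR3 in another sample differed with the combination by 0.877 points without small rearrangements beside large clones, and by 0.931 without those at least 100 times larger in any sample. With anti-PD-1 and the combination it differed by 0.658 and -1.56 points at equal depth and by 1.09 and -1.10 where the V gene had to match, and with anti-PD-1 by 0.718 for identical bases. Without the most frequent rearrangement of each sample the combination template difference went from -4.86 to -11.3 points. The class difference of 17.1 points was 4.24 for identical bases and 21.9 at equal depth.

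Called J genes with anti-PD-1 went from 1 to 0 under DESeq2, TMM normalization, unique rearrangements and the replicate block. Called V-J pairs with ANT008 went from 2 to 9 under DESeq2 and to 0 under TMM normalization, unique rearrangements and the replicate block. With the combination, DESeq2 called 12 pairs, 3 of them with Trbj2-7. Same-numbered mice of different groups did not deviate together (correlations of -0.50 to 0.50, median -0.15, over 24 pairs). With the replicate block the ANT008 template difference of -11.9 points had an exact p of 0.226, the log2 fold changes were -0.59, -0.16 and -0.17, and the block changed no other call.

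Leaving out 1 sample at a time, the ranges (ANT008 first, then anti-PD-1, then the combination) were -17.8 to -6.43, -10.8 to 0.517 and -10.7 to 0.612 points for the template share, -1.26 to -0.409, -1.26 to -0.379 and -1.13 to -0.279 for the productive unique share, and -2.14 to -1.01, -2.45 to -1.32 and -2.39 to -1.26 for the out-of-frame share. The shared percent ranged from 1.09 to 3.24, 1.48 to 3.67 and -1.55 to 0.917, the last turning without control 4. The class difference was 15.5 to 19.3. The log2 fold change was -0.84 to -0.36, -0.45 to 0.026 and -0.45 to 0.030, the sign turning without control 1. Called J genes numbered 0 to 1 in each comparison, and called V-J pairs 0 to 3 with ANT008 and 0 in the others. With 4 mice in each group and template shares that rest on a few large clones, differences of several points were not detectable.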
